A study of Mus musculus with 2 samples.

Results

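The let-7 guide strands with miR-98-5p were described here as a group of 9 mature microRNAs (miRNAs), deposited as hsa-let-7a-5p, hsa-let-7b-5p, hsa-let-7c-5p, hsa-let-7d-5p, hsa-let-7e-5p, hsa-let-7f-5p, hsa-let-7g-5p, hsa-let-7i-5p and hsa-miR-98-5p and named without the species prefix below. The rule takes them by name, as the entries with these human mature names plus any mouse-named entry of the same mature name; the family was picked with earlier results of these data known. All 9 were found, in 10 of the 851 named entries, which fold into 776 mature names when human-named and mouse-named entries are summed. Opposite (3p) strands were kept out. Every member had reads in both libraries. All 9 also passed the minimum mean of 10 RPM used for calls of size, which 301 of the 776 mature names passed.

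The measurement was small RNA sequencing of mitochondria prepared from mouse heart, with 1 STZ library and 1 control library. STZ stands for streptozotocin, which kills the insulin-producing cells of the pancreas and is given to mice to model diabetes. The study as titled concerns Ago2, the protein that holds the guide strand of a miRNA, in diabetic cardiomyopathy. The sources used here do not give strain, sex, age, STZ dose, time after STZ or whether hearts were pooled. With 1 library per group there was no replicate, so no p-value is given, "higher" and "lower" compare these 2 libraries, and the 95% intervals speak to counting error alone. The sources used here do not say whether molecular identifiers were used, so PCR copies of 1 molecule may be counted more than once.

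let-7 was found in the worm Caenorhabditis elegans as a regulator of developmental timing, and its relatives in mammals are abundant in differentiated tissue. The RNA-binding protein LIN28 blocks the maturation of most let-7 precursors, and known let-7 targets include Lin28a itself, the chromatin protein gene Hmga2, Ras genes and genes of insulin signalling such as Igf1r and Insr. A miRNA recognises a message mainly through its seed, bases 2 to 8 of the guide strand, so members that share a seed are expected to share many targets.

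The mature sequences are shown because the family differs only outside the seed and some members lie 1 base apart, which bears on how reads can be assigned to names. They are the mouse entries of RefSeq on GRCm38.p6, 5′ to 3′, with the seed in capitals; all 9 members had an entry.
let-7a-5p: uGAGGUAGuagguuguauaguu
let-7b-5p: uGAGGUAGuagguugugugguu
let-7c-5p: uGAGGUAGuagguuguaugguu
let-7d-5p: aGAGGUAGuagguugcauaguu
let-7e-5p: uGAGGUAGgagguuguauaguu
let-7f-5p: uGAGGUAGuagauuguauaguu
let-7g-5p: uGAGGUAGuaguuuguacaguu
let-7i-5p: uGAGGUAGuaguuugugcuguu
miR-98-5p: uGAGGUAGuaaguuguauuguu

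All 9 are 22 bases long and carry the same seed. They vary at 8 positions, 1, 9, 11, 12, 16, 17, 18 and 19, counted from the 5′ end, and are identical at the other 14. Relative to let-7a-5p, with the base of let-7a-5p written first, let-7c-5p differs by A19G, let-7e-5p by U9G and let-7f-5p by G12A. let-7b-5p differs by A17G and A19G, let-7d-5p by U1A and U16C, let-7g-5p by G12U and U18C, and miR-98-5p by G11A and A19U. let-7i-5p is the most distant from let-7a-5p, with 4 substitutions, G12U, A17G, U18C and A19U. Among the mouse mature names of RefSeq, 11 of 1679 carry this seed, the 9 members with let-7k and miR-1961. The deposited data have no entry named let-7k or miR-1961, nor one for miR-202-3p of the fixed list of relatives.

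The family as a whole took a somewhat larger share of the STZ library. Its members summed to 37076 of 706860 assigned reads in the STZ library, or 5.25% (Wilson 95% interval 5.19 to 5.30), and to 22959 of 508182 in the control library, or 4.52% (4.46 to 4.58). The STZ to control ratio of the summed level was 1.16, with an exact interval of 1.14 to 1.18 (conditional binomial). In RPM (reads per 1000000 assigned reads) the family stood at 52452 in the STZ library and 45179 in the control library. Because these are bulk libraries of a mitochondrial preparation, differences in the mix of cells, in RNA per cell and in the purity of the preparation cannot be told apart.

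The direction was shared by most members but its size was not. Of the 9 members, 8 had a ratio above 1, against 48.8% of the 301 mature miRNAs that passed the minimum. The interval of the ratio lay above 1 for 7 members, below 1 for let-7b-5p, and included 1 for let-7e-5p. Among the 267 mature miRNAs whose reads summed to 20 or more over the STZ and control libraries, 31.1% had an interval above 1 and 32.6% one below. Among the 96 with 400 or more, the range in which all 9 members fall, the shares were 36.5% and 41.7%, so an interval that excludes 1 is common at this depth. No member was 2-fold apart on the scale of log2(RPM + 1), where 34.6% of the 301 were, 16.9% as higher and 17.6% as lower in the STZ library. Among the 96 abundant miRNAs 7.29% were 2-fold apart in either direction. At 1.5-fold 1 member was apart, miR-98-5p, beside 51.2% of the 301 and 18.8% of the 96. The median log2 fold of the members was 0.16, beside -0.02 for the 301 and -0.03 for the 96.

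**Figure D1:**
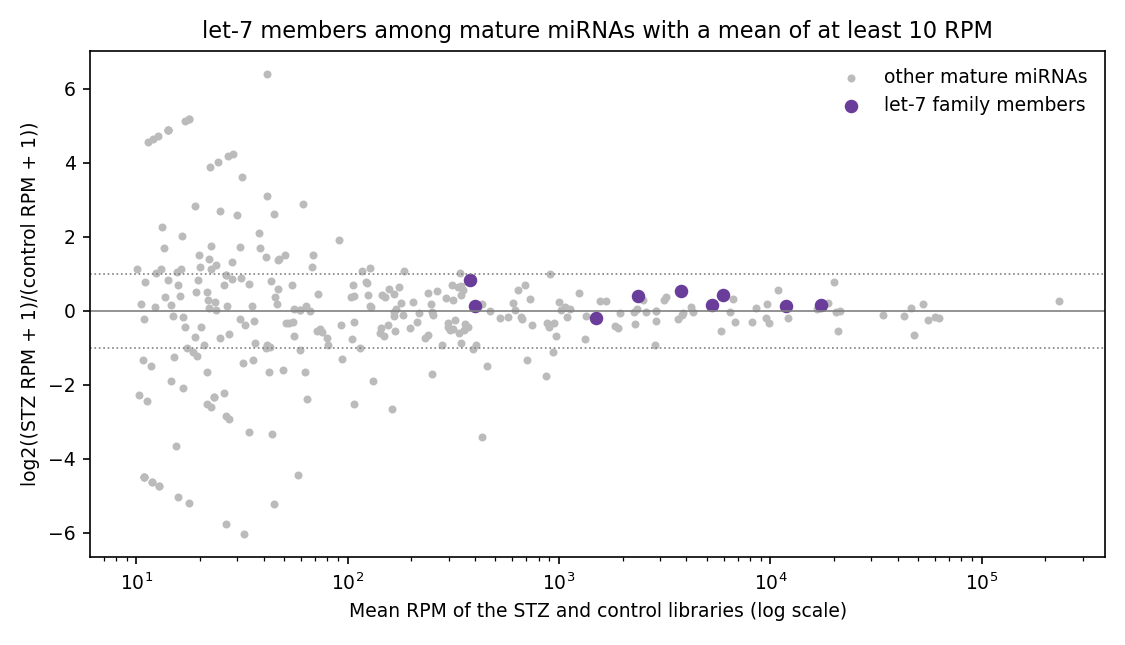
Each point is a mature miRNA that averaged 10 RPM or more, with the mean level of both libraries on the x axis (RPM, log scale) and the log2 fold of the STZ over the control library on the y axis; dotted lines mark 2-fold. The 9 let-7 members (purple) lie between log2 -0.20 and 0.83, all inside the 2-fold lines, and 8 of them lie above 0.

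The most abundant members were let-7f-5p and let-7g-5p. let-7f-5p, which both Mirlet7f-1 and Mirlet7f-2 can produce, had 12856 reads (18187 RPM) in the STZ library and 8297 reads (16327 RPM) in the control library, a ratio of 1.11 (1.08 to 1.15). let-7g-5p, from an intron of the chromatin regulator gene Wdr82, had 8729 reads (12349 RPM) in the STZ library and 5771 reads (11356 RPM) in the control library, a ratio of 1.09 (1.05 to 1.12). Both were thus slightly higher in the STZ library, ranking 14 and 18 among all mature miRNAs there and 15 and 18 in the control library.

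let-7i-5p and let-7e-5p had similar ratios at lower levels. let-7i-5p, which shares G12U and U18C with let-7g-5p, had 3968 reads (5614 RPM) in the STZ library and 2547 reads (5012 RPM) in the control library, a ratio of 1.12 (1.07 to 1.18). let-7e-5p, the member of the Mir99b and Mir125a cluster, had 296 reads (419 RPM) in the STZ library and 194 reads (382 RPM) in the control library. Its ratio of 1.10 had an interval of 0.912 to 1.32, so a difference was not detectable at this depth.

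let-7a-5p, let-7c-5p and let-7d-5p were further above their control levels. let-7a-5p, the founding sequence of the family, had 4852 reads (6864 RPM) in the STZ library and 2594 reads (5104 RPM) in the control library, a ratio of 1.34 (1.28 to 1.41). let-7c-5p, 1 base away from it, had 3157 reads (4466 RPM) in the STZ library and 1575 reads (3099 RPM) in the control library, a ratio of 1.44 (1.36 to 1.53). let-7d-5p, the only member that does not begin with U, had 1894 reads (2679 RPM) in the STZ library and 1033 reads (2033 RPM) in the control library, a ratio of 1.32 (1.22 to 1.42). The intervals of these 3 members overlap one another and none reaches those of let-7f-5p, let-7g-5p or let-7i-5p.

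The ends of the range were 2 members of low level, miR-98-5p and let-7b-5p. miR-98-5p, which lies beside Mirlet7f-2 in the ubiquitin ligase gene Huwe1, had 342 reads (484 RPM) in the STZ library and 138 reads (272 RPM) in the control library, a ratio of 1.78 (1.46 to 2.19). Its rank among mature miRNAs was 79 in the STZ library and 106 in the control library, the largest shift of the 9. let-7b-5p was the one member with a lower level in the STZ library, with 982 reads (1389 RPM) there and 810 reads (1594 RPM) in the control library, a ratio of 0.872 (0.793 to 0.958).

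**Figure D2:**
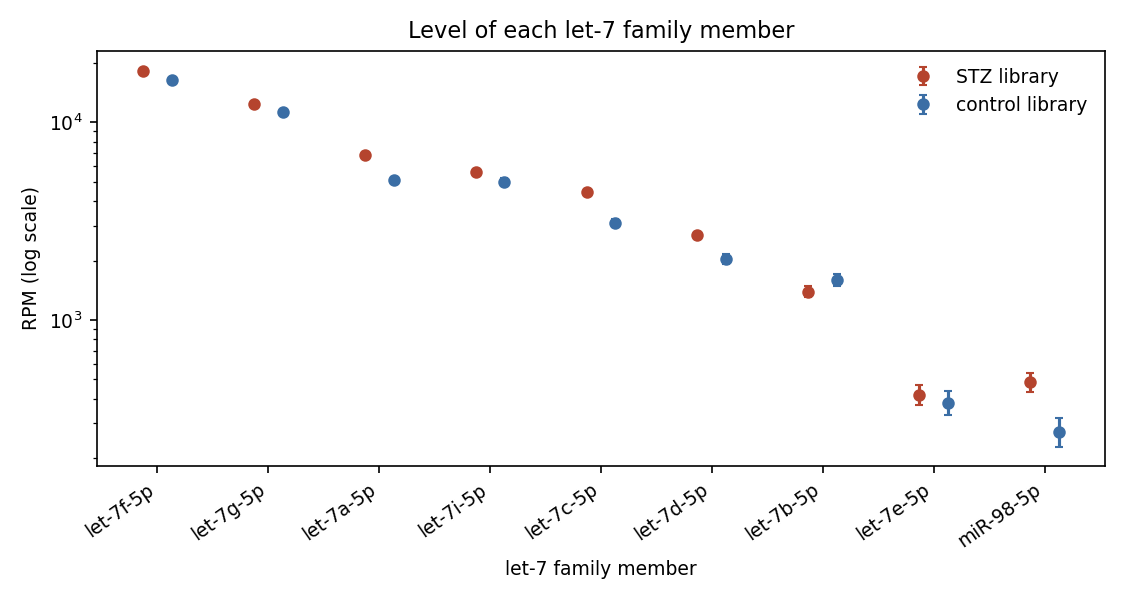
The level of each member is plotted in RPM (log scale) for the STZ (red, left) and control (blue, right) library, with exact Poisson 95% intervals. The STZ point is the higher of the pair for every member but let-7b-5p, and the intervals of the pair overlap only for let-7e-5p.

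The 9 members did not contribute equally to the summed difference of 7273 RPM. let-7f-5p and let-7a-5p added 1861 and 1760 RPM, or 25.6% and 24.2% of it, although let-7a-5p had less than one read for every 2 of let-7f-5p in either library. let-7c-5p added 1367 RPM (18.8%) and let-7g-5p 993 RPM (13.7%). let-7d-5p and let-7i-5p added 647 and 602 RPM. The largest ratio, that of miR-98-5p, corresponded to 212 RPM or 2.92% of the difference, and let-7b-5p was 205 RPM lower.

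The order of the members was nearly the same in both libraries. In the STZ library it ran let-7f-5p, let-7g-5p, let-7a-5p, let-7i-5p, let-7c-5p, let-7d-5p, let-7b-5p, miR-98-5p and let-7e-5p. The control library had let-7e-5p above miR-98-5p and otherwise the same order. In the STZ library neighbours differed beyond counting error at every step but the last, where miR-98-5p over let-7e-5p was 1.16 (0.986 to 1.35). In the control library let-7a-5p and let-7i-5p could not be ordered, at 1.02 (0.964 to 1.08), whereas the STZ library had let-7a-5p above let-7i-5p by 1.22 (1.17 to 1.28). These are read counts of sequences of equal length, with no correction for how well each sequence is captured.

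Composition, the share of the family's own reads held by each member, does not depend on how the libraries are scaled. let-7f-5p and let-7g-5p together held 58.2% of the family in the STZ library and 61.3% in the control library. let-7a-5p held 13.1% (Wilson interval 12.7 to 13.4) in the STZ library and 11.3% (10.9 to 11.7) in the control library, and let-7c-5p held 8.51% (8.24 to 8.80) in the STZ library and 6.86% (6.54 to 7.19) in the control library. let-7b-5p held 2.65% (2.49 to 2.82) in the STZ library and 3.53% (3.30 to 3.77) in the control library. The effective number of members (inverse Simpson index, which equals 9 when all are equally abundant) was 4.65 in the STZ library and 4.41 in the control library.

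By the odds of a member against the other 8, 7 members differed in composition beyond counting error. No such count was made for other families. The shares add up to the whole family, so a larger share of some members lowers that of others, and the 7 are not independent. By the plain STZ to control ratio, 36.5% of the 96 miRNAs with 400 or more reads had an interval above 1 and 41.7% one below. A count of this size is therefore not shown to be particular to let-7. The odds ratio of STZ over control was 1.54 (exact interval 1.26 to 1.89) for miR-98-5p, 1.26 (1.19 to 1.35) for let-7c-5p, 1.18 (1.12 to 1.24) for let-7a-5p and 1.14 (1.06 to 1.24) for let-7d-5p. It was 0.744 (0.676 to 0.819) for let-7b-5p, 0.917 (0.883 to 0.953) for let-7g-5p and 0.938 (0.906 to 0.971) for let-7f-5p. let-7i-5p, at 0.960 (0.911 to 1.01), and let-7e-5p, at 0.944 (0.785 to 1.14), had intervals that included 1. let-7f-5p and let-7g-5p thus had a higher level but a smaller share of the family in the STZ library.

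**Figure D3:**
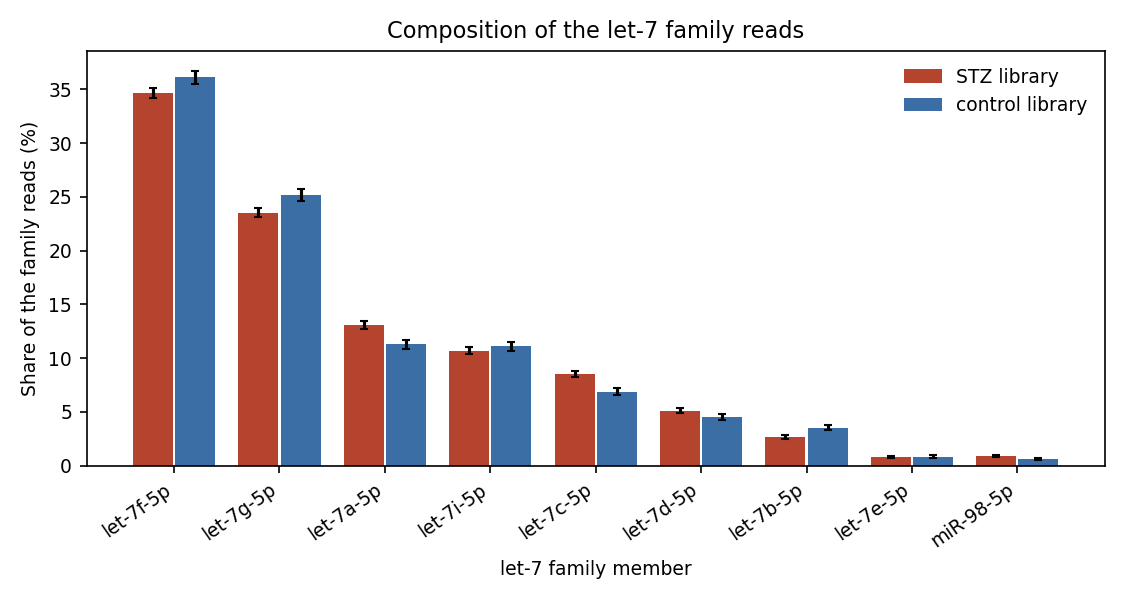
Bars give the percent of the family's reads held by each member in the STZ (red, left) and control (blue, right) library, with Wilson 95% intervals. let-7a-5p, let-7c-5p, let-7d-5p and miR-98-5p held more of the family in the STZ library, and let-7f-5p, let-7g-5p and let-7b-5p held less.

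Set against each other, most pairs of members differed in proportion between the libraries beyond counting error. Of the 36 pairs, 26 had an odds ratio whose 95% interval excluded 1, and 20 still did when the interval was widened for 36 comparisons. The pairs share members and are not independent, and pairs of other miRNAs were not counted. Intervals of the plain ratio that exclude 1 were common among the 96 miRNAs with 400 or more reads, 36.5% above and 41.7% below. The 10 pairs whose interval included 1 were the 6 pairs among let-7e-5p, let-7f-5p, let-7g-5p and let-7i-5p, the 3 pairs among let-7a-5p, let-7c-5p and let-7d-5p, and the pair of let-7d-5p and let-7e-5p. For instance, let-7f-5p had 3.24 reads for each of let-7i-5p in the STZ library and 3.26 in the control library, an odds ratio of 0.995 (0.939 to 1.05). let-7a-5p had 2.56 reads for each of let-7d-5p in the STZ library and 2.51 in the control library, an odds ratio of 1.02 (0.932 to 1.12). let-7b-5p and miR-98-5p differed from every other member at the 95% level, though not in each case at the widened one. let-7e-5p, with 296 STZ and 194 control reads, has wide intervals, and at the widened level its pairs with let-7a-5p, let-7b-5p and let-7c-5p included 1 too, so its place among the others is not resolved. These groupings were seen in the values and are a description of 2 libraries.

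**Figure D4:**
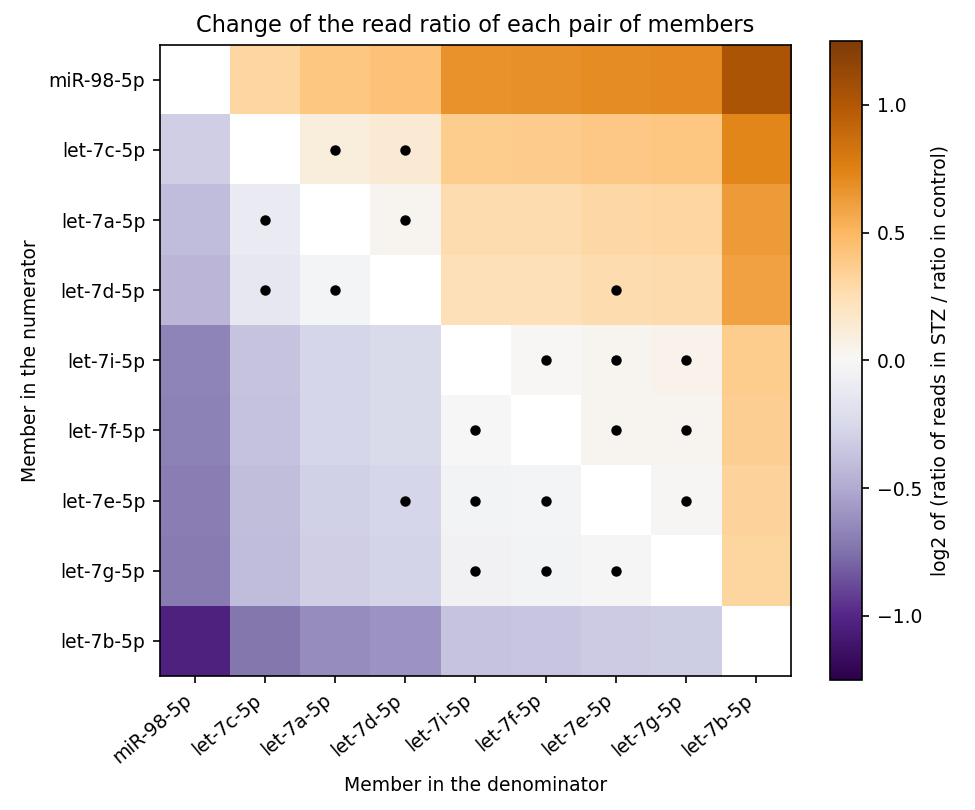
Each cell gives the log2 of the read ratio of a pair of members in the STZ library over that in the control library, row over column, with members ordered by their STZ to control ratio. Black dots mark the 10 pairs whose 95% counting interval includes no difference, and the darkest cells, at 1.03 in absolute log2, are those of miR-98-5p and let-7b-5p.

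The pairs were then read against sequence distance. Of the 36 pairs, 4 are 1 base apart. let-7a-5p over let-7c-5p (A19G) had an odds ratio of 0.933 (0.863 to 1.01), which included 1. let-7a-5p was higher relative to let-7f-5p (G12A), at 1.21 (1.14 to 1.28), and to let-7e-5p (U9G), at 1.23 (1.01 to 1.48), where the widened interval included 1. let-7b-5p and let-7c-5p (G17A, with the base of let-7b-5p first) had the largest difference of the 4, at 0.605 (0.541 to 0.677). The median absolute log2 odds ratio was 0.28 over the 4 pairs 1 base apart and 0.31 over all 36. By distance it was 0.31 over the 10 pairs 2 bases apart, 0.35 over the 11 at 3 and 0.36 over the 9 at 4. The single pairs at 5 and 6 bases had 0.03 and 0.23. A dependence on distance was not tested. The sources used here do not say how many mismatches were allowed in assigning reads, and exchange of reads between such members was not tested. Some names outside the family had equal or nearly equal reads. miR-365a-3p and miR-365b-3p each had 42 STZ and 30 control reads. miR-199a-3p had 2028 STZ and 1471 control reads, beside 2022 and 1470 for miR-199b-3p. Whether a read was counted under more than 1 name was not tested, and all intervals take each read as counted once.

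Reads of let-7c-5p were split over 2 entries, and the smaller one differed more. The human-named entry had 3077 reads in the STZ library and 1566 in the control library, a ratio of 1.41 (1.33 to 1.502). The mouse-named entry had 80 reads (113 RPM) in the STZ library and 9 reads (17.7 RPM) in the control library, a ratio of 6.39 (3.20 to 14.5). It therefore held 2.53% (2.04 to 3.14) of the let-7c-5p reads in the STZ library and 0.571% (0.301 to 1.08) in the control library, an odds ratio of 4.52 (2.26 to 10.3). The sources used here do not say what separates these entries. Of the 19 mature names with both kinds of entry and at least 400 reads, 11 had a mouse-named read in either library; of these, 5, let-7c-5p included, had a larger mouse-named share in the STZ library and 6 a smaller one. The other 8 members had a human-named entry only.

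The precursors place several members on shared transcripts. On GRCm38, Mirlet7a-1 (chromosome 13, 48538179 to 48538272), Mirlet7f-1 (48537829 to 48537917) and Mirlet7d (48536012 to 48536114) lie on the minus strand within exons of the long noncoding RNA 6720427I07Rik. Mirlet7c-2 (chromosome 15, 85706603 to 85706697) and Mirlet7b (85707319 to 85707403) lie 621 bases apart on the plus strand in exons of the noncoding transcript Lncppara. Mirlet7f-2 (chromosome X, 151912346 to 151912428) and Mir98 (151913214 to 151913321) lie 785 bases apart in an intron of Huwe1. Mirlet7g (chromosome 9, 106178840 to 106178927) is intronic in Wdr82, and Mirlet7i (chromosome 10, 122985640 to 122985724) lies in an exon of the transcribed pseudogene D630033A02Rik.

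Members from one such cluster could differ in proportion. On chromosome 13 the interval of let-7a-5p over let-7d-5p included 1, as given above, but let-7d-5p over let-7f-5p had an odds ratio of 1.18 (1.09 to 1.28). On chromosome 15 let-7b-5p was lower and let-7c-5p higher in the STZ library. On the X chromosome miR-98-5p over let-7f-5p had an odds ratio of 1.60 (1.31 to 1.97). let-7a-5p, let-7c-5p and let-7f-5p each match 2 precursors exactly, so their reads cannot be divided between loci.

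The miRNAs clustered with let-7 precursors outside the family are miR-99a-5p, miR-99b-5p, miR-100-5p, miR-125a-5p and miR-125b-5p. Of these 5, 3 had an interval above 1 and none had one below, beside the 36.5% above and 41.7% below among all miRNAs with 400 or more reads. miR-125b-5p, a relative of the worm timing miRNA lin-4, had a ratio of 1.70 (1.66 to 1.75), and miR-99a-5p one of 1.13 (1.09 to 1.18). miR-125a-5p stood at 1.03 (1.003 to 1.06), an interval that included 1 (from 0.998) with the 10 most abundant miRNAs left out of the totals. miR-100-5p stood at 1.03 (0.955 to 1.11) and miR-99b-5p at 0.983 (0.915 to 1.06).

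Within the cluster on chromosome 17, where Mir99b, Mirlet7e (17830352 to 17830444, in an intron of Spaca6) and Mir125a follow each other, no difference in proportion was detectable. let-7e-5p over miR-99b-5p had an odds ratio of 1.12 (0.915 to 1.36) and over miR-125a-5p one of 1.06 (0.883 to 1.28). Mirlet7c-1 (chromosome 16, 77599657 to 77599750, in an intron of Mir99ahg) shares its cluster with Mir99a and Mir125b-2. Over the reads of all loci, let-7c-5p was higher relative to miR-99a-5p, at 1.27 (1.18 to 1.36), and lower relative to miR-125b-5p, at 0.846 (0.792 to 0.905). miR-125b-5p can come from Mir125b-2 or from Mir125b-1, and let-7a-5p and let-7c-5p also match precursors elsewhere. The odds ratios with these miRNAs, for this cluster and the next, therefore cannot be assigned to either cluster alone. Mirlet7a-2 (chromosome 9, 41536716 to 41536811, in introns of the noncoding genes 3110039I08Rik and Gm49317) lies between Mir100 and Mir125b-1, and let-7a-5p over miR-100-5p stood at 1.31 (1.19 to 1.43) and over miR-125b-5p at 0.790 (0.747 to 0.835).

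An entry named let-7j carries a let-7 name but not the let-7 seed, and its sequence is shown to make that visible, with bases 2 to 8 in capitals.
let-7j: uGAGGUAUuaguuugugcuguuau
Over its first 22 bases it differs from let-7i-5p by 1 substitution, G8U, with the base of let-7i-5p first, which falls on the last seed base. It had 124 reads (175 RPM) in the STZ library and 40 reads (78.7 RPM) in the control library, a ratio of 2.23 (1.55 to 3.27). Its odds ratio against let-7i-5p was 1.99 (1.38 to 2.93), and in each library it had fewer than 4 reads for every 100 of let-7i-5p. The mismatches allowed are not given, and whether reads of let-7i-5p were assigned to let-7j was not tested.

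**Figure D5:**
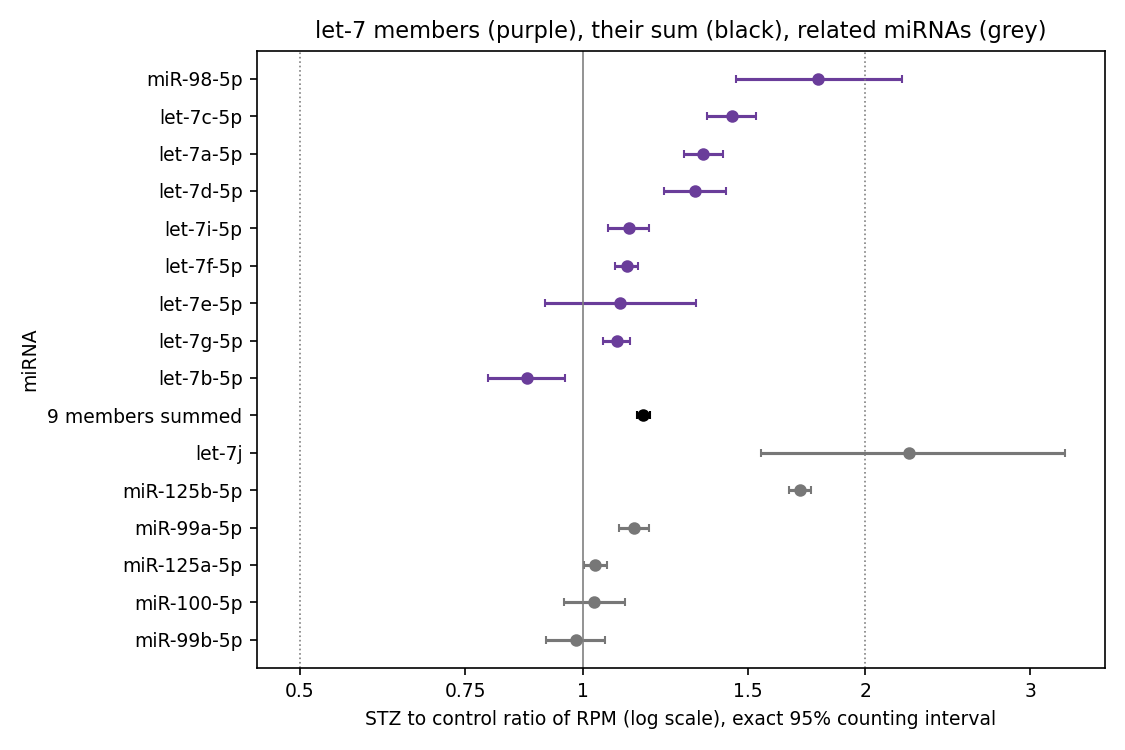
Points give the STZ to control ratio of RPM (log scale) with its exact 95% counting interval for the 9 members (purple), their sum (black) and related miRNAs (grey); dotted lines mark 2-fold. miR-98-5p at 1.78 and let-7b-5p at 0.872 are the ends of the family, and let-7j at 2.23 is the one point past 2-fold.

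Other abundant families were compared by summed reads. The 5 miR-30 guide strands had a summed ratio of 0.966 (0.958 to 0.974), so the odds of a let-7 against a miR-30 read had an STZ over control ratio of 1.20 (1.18 to 1.22). Against miR-26a-5p with miR-26b-5p, at 1.05 (1.04 to 1.07), that odds ratio was 1.10 (1.08 to 1.13). Against the 3 miR-29 guide strands, at 1.47 (1.42 to 1.53), it was 0.788 (0.758 to 0.819). Both miR-26 members had ratios of 1.05, those of miR-30 ran between 0.890 and 1.22 and those of miR-29 between 1.26 and 1.48, beside 0.872 to 1.78 over the 9 of let-7. Among the 61 other mature miRNAs with at least 1000 reads, those with a ratio nearest to the summed family were miR-27b-3p (1.16), miR-24-2-5p (1.18) and miR-30d-5p (1.14), a likeness over 2 libraries only.

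Markers of cell types differed as well. The 4 heart muscle miRNAs (miR-1-3p, miR-133a-3p, miR-208a-3p and miR-499a-5p) summed to 31.5% of the STZ and 28.0% of the control reads. Most of that sum was miR-1-3p, at 252647 RPM in the STZ and 209319 RPM in the control library. miR-1-3p at a ratio of 1.21 and miR-499a-5p at 1.07 had intervals above 1. miR-133a-3p at 0.866 and miR-208a-3p at 0.498 had intervals below 1, so these markers did not share a direction. The endothelial pair, miR-126-3p and miR-126-5p, summed to 4.35% of the STZ and 6.61% of the control reads, and the smooth muscle pair, miR-143-3p and miR-145-5p, to 5.19% of the STZ and 6.18% of the control reads. Red cell markers miR-451a and miR-144-3p summed to 0.198% of the STZ and 0.377% of the control reads, and the 3 leukocyte markers (miR-142-5p, miR-142-3p and miR-223-3p) to 0.0473% of the STZ and 0.0577% of the control reads. Of those 3, miR-223-3p had an interval below 1, at a ratio of 0.692, while miR-142-5p at 1.29 and miR-142-3p at 0.479 had intervals that included 1. Liver miR-122-5p had 52 STZ and 400 control reads, and the epithelial pair, miR-200b-3p and miR-200c-3p, 7 STZ and 81 control reads. No listed marker was at 0 in either library, and the part of other cell types in the let-7 values was not tested. No miRNA marker of mitochondria was used, so the labelled organelle was not checked.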

How the data were processed

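Small RNA of heart mitochondria was analysed from 1 STZ and 1 control library, grouped by title. The deposited files hold a never-negative signal of 1018 entries per library. They name no unit, apart from the words TOTAL TPM beside an extra row of the control file; the values sum to 1000000 and were read as RPM (reads per 1000000). That extra row, the sum of the 66 rows above it, has no miRNA name and was left out of both. The build is GRCm39, per the submitters' processing notes; the sources used here do not give the aligner, miRNA reference, trimming or mismatches, and coordinates here are from GRCm38 annotation. Every deposited value was a whole multiple of 1 read (100% within 0.001 of a read; 1.41 RPM in the STZ and 1.97 in the control library), giving 706860 STZ and 508182 control reads. Human-named and mouse-named entries of a mature name were summed. Whether the deposited values count a read under more than 1 name was not tested. Ratios have exact conditional binomial intervals (Clopper-Pearson), composition exact conditional odds ratios, shares Wilson intervals. Calls of size used 2-fold on log2(RPM + 1) and a mean of at least 10 RPM. No p-value is possible with 1 library per group. Members, lists and settings were chosen with earlier results of these data known. Named are the 9 members, fixed relatives, and the 3 miRNAs nearest in ratio. Alternatives used TMM (edgeR 4.0.16) and median-of-ratios (DESeq2 1.42.0) scaling on the recovered reads. Python 3.11.15, scipy 1.17.1 and R 4.3.3 were used. Intervals were tested on simulated reads with counting error only, which cannot speak to spread between libraries.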

Additional observations from a re-analysis of the deposited data

How the results depend on the processing

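No paired analysis was possible because the STZ and control groups are 1 library each, and for the same reason none could be left out. Scaling moved log2 ratios by 0.02 (TMM), 0.01 (median of ratios), -0.01 (totals without the 10 most abundant miRNAs) or less (totals of named miRNAs), and the summed family ratio stayed between 1.16 and 1.18. Under these and with human-named entries only, each member's ratio stayed inside its main interval and kept its direction, and the median log2 fold stayed between 0.16 and 0.18, also with pseudocounts of 0.1 and 10 RPM. At 1.5-fold 1 member was called, miR-98-5p, against 0 at 2-fold, beside 51.2% of the 301 miRNAs that passed the minimum. Without let-7f-5p the summed ratio was 1.19. Merging members 1 base apart (let-7a-5p, let-7b-5p, let-7c-5p, let-7e-5p and let-7f-5p) left 5 units, 4 of which differed in composition, and the merged unit had a ratio of 1.18 (1.16 to 1.21). Without let-7f-5p in the denominator 7 members still differed in composition, let-7i-5p at 0.932 (0.882 to 0.985) in its place. Of the 6 measured relatives 4 had an interval above 1, beside 31.1% of miRNAs with 20 or more reads, and 3 without the 10 most abundant miRNAs in the totals, where miR-125a-5p was lost. The limit of 400 reads for a background, and the scalings of the relatives, were chosen after the data were seen. A count of 0 would allow 4.24 RPM in the STZ and 5.90 RPM in the control library, far below every member.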
